A study of Mus musculus with 2 samples.

Results

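Ibsp-expressing cells are here the small fraction of cultured mouse marrow stroma with a set level of Ibsp transcripts. Ibsp encodes the bone matrix protein bone sialoprotein. They were chosen by counts of unique molecular identifiers (UMIs), each UMI standing for 1 captured mRNA molecule. A barcode had to hold at least 20000 UMIs, of which at most 15% were mitochondrially encoded. Per 10000 UMIs of the cell, it needed at least 60 for Col1a1, Col1a2 and Sparc together, under 20 for 8 macrophage genes, under 5 for 8 cell division genes, and at least 1 for Ibsp. The rule found 285 of 15265 barcodes, 109 of 6140 in the cKO library and 176 of 9125 in the WT library. The 670 cKO and 957 WT cells that met every condition except the one on Ibsp are called other stroma here. Of these, 195 cKO and 241 WT cells held an Ibsp UMI but stayed below the set level. Ibsp and the genes of the other conditions were used to choose the cells, so their levels in the 2 kinds of cell are a description and not a finding.

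The study compared marrow stromal cells with and without a conditional deletion of Slc31a1, which encodes the plasma membrane importer of copper CTR1. The cKO library came from Prrx1-Cre+/-; Slc31a1flox/flox mice and the WT library from Slc31a1flox/flox littermates without Cre, all on C57BL/6J, so the controls carry the floxed alleles too. Prrx1-Cre acts in limb mesenchyme and is not a driver for blood lineages. Marrow of femur and tibia was plated in alpha-MEM with 10% serum, floating cells were discarded at 48 h, and no osteogenic medium was used. Age, sex and the number of mice behind each library are not in the labels, which name a single batch for both. Each genotype had 1 library of 10x Genomics 3' v3 chemistry, so nothing could be tested over samples and p-values are left out. Intervals are 95% intervals for counting error, and they compare these 2 libraries, not the genotypes.

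Osteoblasts arise from mesenchymal progenitors that switch on the transcription factors RUNX2 and then SP7 (osterix). Committed cells raise tissue-nonspecific alkaline phosphatase (Alpl), which frees phosphate for mineral, and then make the matrix proteins bone sialoprotein, osteopontin (Spp1) and osteocalcin (Bglap, Bglap2). Osteocytes, the cells buried in bone, express Dmp1, Mepe and Sost. Copper is needed by lysyl oxidases, which cross-link collagen, and by the last complex of the respiratory chain.

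Ibsp, the gene that selected the cells, Bglap, which had one of the highest ratios in them, and Spp1, which differed most between the libraries among bone matrix genes, are shown by the 250 bases before the transcription start. The sequences are from RefSeq on GRCm38.p6 and read 5′ to 3′ on the strand of the gene. Capitals mark the letters ACCACA, the reverse complement of TGTGGT, a core that RUNX factors are known to bind.
Ibsp, chr5:104299037-104299286, plus strand: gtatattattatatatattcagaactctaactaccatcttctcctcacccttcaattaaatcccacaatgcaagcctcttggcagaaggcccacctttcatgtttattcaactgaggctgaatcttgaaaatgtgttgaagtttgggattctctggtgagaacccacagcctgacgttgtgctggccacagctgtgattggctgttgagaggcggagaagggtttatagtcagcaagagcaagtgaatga
Bglap, chr3:88384467-88384716, minus strand: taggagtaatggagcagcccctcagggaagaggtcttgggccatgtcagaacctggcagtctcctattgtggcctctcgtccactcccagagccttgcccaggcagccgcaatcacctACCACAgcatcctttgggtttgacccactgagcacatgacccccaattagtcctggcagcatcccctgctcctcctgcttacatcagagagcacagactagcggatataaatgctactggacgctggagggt
Spp1, chr5:104434861-104435110, plus strand: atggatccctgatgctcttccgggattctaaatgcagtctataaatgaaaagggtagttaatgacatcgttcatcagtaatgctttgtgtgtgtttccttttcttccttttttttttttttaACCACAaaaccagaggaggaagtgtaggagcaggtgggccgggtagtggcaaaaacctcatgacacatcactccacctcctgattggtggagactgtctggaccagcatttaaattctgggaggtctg
The match began 132 bases before the start in Bglap and 128 bases before it in Spp1. TGTGGT or ACCACA was in 16.8% of all 32851 RefSeq promoter windows, each of which also takes in 50 bases after the start. Of the 79 genes called higher in Ibsp-expressing cells below that had a window, 11.4% held it, against 13.7% of 5303 genes compared. A match is a description of letters, and its absence from the Ibsp window says only that these letters are not there. Ibsp (ENSMUSG00000029306), Spp1, Dmp1 and Mepe lie close together on the plus strand of chromosome 5, in a cluster of genes for related bone and tooth matrix proteins.

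Depth was high. The 109 cKO cells held 7179179 UMIs (median 64448 per cell, 20755 to 173042), and the 176 WT cells held 8739788 UMIs (median 47219, 20236 to 102369). Other stroma had similar depths, with medians of 66483 in cKO and 49883 in WT. Ibsp-expressing cells had a median of 4.23% mitochondrially encoded UMIs in cKO and 3.65% in WT, against 4.01% and 3.41% in other cKO and WT stroma. The libraries shared 11 barcodes, and 0 of these was an Ibsp-expressing cell in both.

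Ibsp-expressing cells made up 13.99% of deep non-cycling stroma in cKO (109 of 779 cells, exact interval 11.6 to 16.6) and 15.5% in WT (176 of 1133 cells, 13.5 to 17.8). The difference of -1.54 points had an interval of -4.71 to 1.74, so it was not larger than counting error. Most stroma held no Ibsp UMI at all, 475 of 779 cells in cKO and 716 of 1133 cells in WT. Between none and the threshold lay 195 cKO and 241 WT cells. The level was continuous across the threshold, with 16 cKO and 28 WT cells between 0.75 and 1 UMI per 10000 and 13 cKO and 14 WT cells in the next interval of the same width above it. Alpl stood just inside it at 560 counts per 1000000 UMIs (CPM) in cKO and 292 CPM in WT, and just outside it at 261 CPM and 472 CPM. In WT, Fat3 (148 CPM against 66.1 CPM), Pth1r, Tenm4 and Runx2 were also higher just outside, and Sp7 was near equal (51.8 CPM against 52.0 CPM). In cKO, Sp7, Pth1r, Tenm4 and Runx2 were higher just inside and Fat3 just outside. The cells nearest the threshold thus did not separate in the same way in the 2 libraries.

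Within the chosen cells Ibsp ranged from 1.00 to 39.5 UMIs per 10000 in cKO, with a median of 3.48, and from 1.01 to 113 in WT, with a median of 4.63. The 10 cells with most Ibsp held 38.2% of Ibsp UMIs in cKO and 31.4% in WT. Free RNA was gauged in the deep macrophage gate, barcodes over the macrophage threshold in the same libraries, 226 cells in cKO and 335 cells in WT. None of these reached 1 Ibsp UMI per 10000, the highest being 0.976 in cKO and 0.906 in WT. After each cell was thinned to 20000 UMIs, an Ibsp UMI was found in 99.1% of Ibsp-expressing cKO cells and 100% of WT ones. Other stroma gave 13.6% and 13.1% in cKO and WT, and the macrophage gate 4.87% and 6.87%. Without thinning, the shares in other stroma were 29.1% and 25.2%, and in the macrophage gate 5.75% and 8.06%, at median depths of 23235 and 23054 UMIs.

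**Figure D1:**
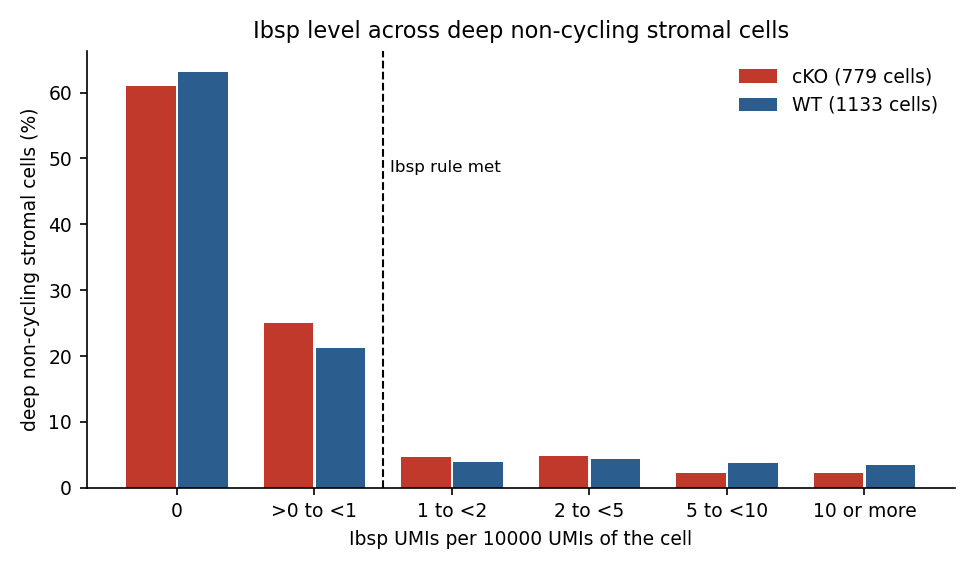
Share of deep non-cycling stromal cells (vertical axis, %) in 6 bands of Ibsp UMIs per 10000 UMIs of the cell (horizontal axis), for 779 cKO cells (red) and 1133 WT cells (blue). The bars without Ibsp stand for 475 cKO and 716 WT cells, and those right of the dashed line add up to 13.99% of cKO and 15.5% of WT cells.

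The name pre-osteoblast-like came with 5 further leading markers, which an earlier readout of these same data had picked, so their levels describe the cells and are no independent check of the name. Of these 5, 4 were at least 1.5-fold higher in Ibsp-expressing cells than in other stroma of both libraries. Alpl had 564 CPM in Ibsp-expressing cells and 195 CPM in other stroma of cKO, and 762 CPM against 238 CPM in WT. Fat3, an atypical cadherin gene, had 249 CPM against 39.5 CPM in cKO and 249 CPM against 36.4 CPM in WT. Tenm4, a teneurin gene, had ratios of 3.42 in cKO and 3.71 in WT. Slc13a5, which encodes a citrate transporter, had ratios of 2.49 and 4.16. Brinp3 was not called, with ratios of 1.26 in cKO and 1.61 in WT. At 20000 UMIs per cell, at least 3 of these 5 markers were found in 66.1% of Ibsp-expressing cKO cells (56.4 to 74.9) and 75.6% of WT ones (68.5 to 81.7). The share was 24.8% in other stroma of both libraries. Fat3 was also found in 32.3% of cKO and 51.0% of WT cells of the macrophage gate, more than in other stroma (25.4% and 24.03%), so that gate is no measure of free RNA for Fat3.

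Transcription factors of the osteoblast lineage were counted in the same way. Of 15 listed, 9 reached 20 CPM, 8 of these had a ratio above 1 in both libraries, and Sp7 and Mef2c passed 1.5-fold. Sp7 had 128 CPM in Ibsp-expressing cells and 46.9 CPM in other stroma of cKO, and 99.2 CPM against 34.8 CPM in WT. Thinned alike, Sp7 was found in 76.1% of Ibsp-expressing cells and 50.9% of other stroma in cKO, and in 79.0% and 38.5% in WT. Runx2 was abundant in both kinds of cell, with 584 CPM against 350 CPM in cKO and 523 CPM against 361 CPM in WT, ratios of 1.67 and 1.45. Creb3l1 had ratios of 1.38 and 1.21, and Twist1, an inhibitor of RUNX2, 1.02 and 0.99. Dlx5, Dlx6, Dlx3, Msx2, Twist2 and Zbtb16 stayed under 20 CPM in every cell sum. Mef2c is also a macrophage gene, with a median of 1.75 UMIs per 10000 in the cKO and 2.29 in the WT macrophage gate. The 8 macrophage genes of the rule had medians of 0.659 and 1.09 UMIs per 10000 in Ibsp-expressing cells of cKO and WT, against 52.1 and 56.8 in that gate.

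Genes were called where the CPM ratio of Ibsp-expressing cells over other stroma was at least 1.5-fold in both libraries. In each library a gene needed 20 CPM or more in either kind of cell, so it could enter through the kind where it was high. Of 6629 genes compared, 112 were higher (1.69%) and 208 were lower (3.14%). The median ratio over all genes was 0.976 in cKO and 0.992 in WT. These counts describe cells that were sorted by Ibsp, and nothing is read from their number.

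After Ibsp itself the highest ratios were those of Bglap, Panx3 and Bglap2. These genes reached 20 CPM only in Ibsp-expressing cells, so the level filter favoured high ratios for them. In cKO this was also so for Kcnma1, Mme, Pgm5 and Cyp26b1. It applies to any other gene below that reached 20 CPM only in Ibsp-expressing cells. Bglap, an osteocalcin gene, had 31.3 CPM in Ibsp-expressing cells and 2.12 CPM in other stroma of cKO, and 23.8 CPM against 1.30 CPM in WT, ratios of 14.8 and 18.2. Bglap2, the other osteocalcin gene, had ratios of 11.3 and 11.0. The 2 osteocalcin genes are near-identical copies on chromosome 3, so how reads were split between them is uncertain. Few cells carried them. After thinning, 27.5% of Ibsp-expressing cKO cells (19.4 to 36.9) and 29.0% of WT ones (22.4 to 36.3) held a UMI of either gene, against 7.01% and 5.33% of other stroma. In cKO 10 cells held 89.3% of Bglap UMIs and 1 cell 29.8%, and in WT 10 cells held 62.0% and 1 cell 11.5%.

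Several of the other leading genes encode channels, receptors or membrane enzymes. Panx3, a channel gene of osteoblasts and prehypertrophic chondrocytes, had 20.6 CPM in Ibsp-expressing cells and 1.69 CPM in other stroma of cKO, and 35.7 CPM against 2.35 CPM in WT. The potassium channel gene Kcnma1 had ratios of 8.46 in cKO and 8.38 in WT, although 1 cell held 19.1% of its cKO UMIs. Mme, encoding the peptidase neprilysin, had ratios of 7.95 and 7.78. Pth1r, the receptor through which parathyroid hormone acts on osteoblasts, had 224 CPM against 61.7 CPM in cKO and 280 CPM against 74.9 CPM in WT. The leukaemia inhibitory factor receptor gene Lifr had ratios of 3.06 and 3.62, and Lrp4, whose product binds sclerostin, 2.09 and 1.89. Of 10 hedgehog, PTH and FGF receptor pathway genes compared, Pth1r and Fgfr2 (1.60 and 1.88) were higher, and Fgf7 (0.614 and 0.621) and Vdr, the vitamin D receptor gene (0.391 and 0.447), were lower, with list medians of 1.14 and 1.06. Of 26 adhesion and axon guidance genes, 3 were higher, Fat3 and Tenm4 among them, and 5 were lower. Tnfrsf19, a receptor of the tumour necrosis factor family, had ratios of 5.82 and 4.95.

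Others encode enzymes or secreted products. Cyp26b1, which breaks down retinoic acid, had ratios of 6.39 in cKO and 5.76 in WT. Pgm5, a relative of the phosphoglucomutases, had 8.67 and 9.63, and the glycosyltransferase gene Galnt3 had 3.71 and 4.59. Ndnf, a secreted factor, had 3.82 and 4.30, the formin gene Fhod3 4.18 and 6.57, and the spindle orientation gene Insc 3.91 and 3.81. The collagenase gene Mmp13 had 114 CPM in Ibsp-expressing cells and 39.1 CPM in other stroma of cKO, and 217 CPM against 75.7 CPM in WT. Dcn, encoding the small proteoglycan decorin, had ratios of 2.55 and 4.11, and Cp, encoding the copper-carrying ferroxidase ceruloplasmin, 1.67 and 2.47. Ccnd1, encoding cyclin D1, had 440 CPM against 202 CPM in cKO and 401 CPM against 190 CPM in WT, in cells that all had few division transcripts by the rule.

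**Figure D2:**
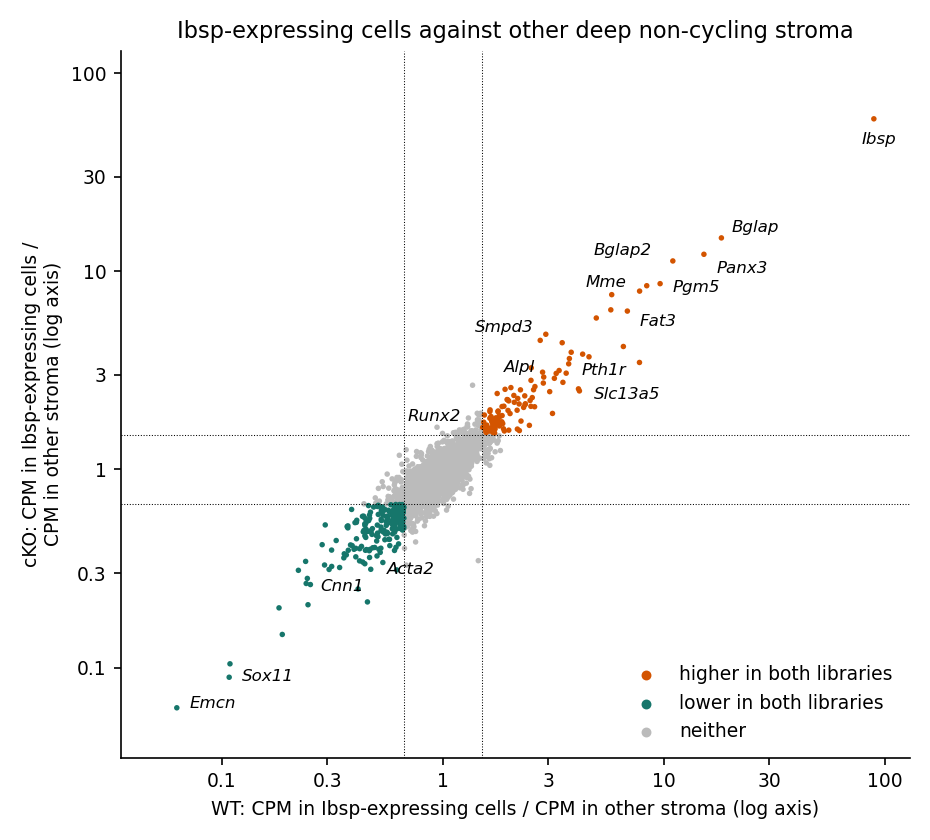
CPM in Ibsp-expressing cells over CPM in other deep non-cycling stroma for 6629 genes, in WT (horizontal log axis) and cKO (vertical log axis). Dotted lines mark 1.5-fold either way, orange points are the 112 genes higher and green points the 208 genes lower in both libraries. Ibsp, which chose the cells, lies at 89.4 in WT and 58.9 in cKO.

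Most contractile genes compared were lower. Of 9, 7 were lower in both libraries, with list medians of 0.457 in cKO and 0.509 in WT. Acta2, encoding smooth muscle actin, had 1203 CPM in Ibsp-expressing cells and 3046 CPM in other stroma of cKO, and 1467 CPM against 3133 CPM in WT. Tagln, encoding transgelin, had ratios of 0.394 and 0.451, Cnn1, encoding calponin, 0.282 and 0.244, Actg2 0.341 and 0.434, Myl9 0.482 and 0.56, and Lmod1 0.473 and 0.593. The basement membrane collagen genes Col4a1 and Col4a2 were also lower, Col4a1 with 189 CPM against 367 CPM in cKO and 160 CPM against 432 CPM in WT. Across collagens as a whole the medians were 1.06 and 1.14, with 0 of 18 higher and 2 lower. Collagen processing genes had medians of 0.919 and 0.944, with Loxl3, a lysyl oxidase gene, the 1 of 19 that was lower (0.416 and 0.382).

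Sox11, Piezo2, Lama2 and Galnt18 are in none of the gene lists and were named for being among the 10 lowest ratios. Sox11, a transcription factor gene, had 4.32 CPM in Ibsp-expressing cells and 48.3 CPM in other stroma of cKO, and 5.15 CPM against 47.7 CPM in WT. Sox11 reached 20 CPM only in other stroma, so the level filter favoured a low ratio for it. The mechanosensitive channel gene Piezo2 had ratios of 0.207 and 0.245, the laminin gene Lama2 0.31 and 0.222, and Galnt18 0.20 and 0.181. In lists of other stromal programmes most genes did not pass 1.5-fold, and single genes were lower. Of 19 marrow reticular and adipogenic genes, 1 (Lifr) was higher and 4 were lower, among them the fat cell regulator Pparg (0.57 and 0.617), Fabp4 (0.47 and 0.478), the chemokine gene Cxcl14 (0.39 and 0.605) and Ebf3 (0.585 and 0.646). Of 10 fibroblast progenitor genes, 2 were lower, Cd248 (0.646 and 0.486) and Mfap5 (0.404 and 0.492). Of 5 genes through which stroma controls osteoclasts, 3 were lower. These were Tnfsf11, encoding RANKL (0.626 and 0.531), Tnfrsf11b, encoding its decoy receptor osteoprotegerin (0.562 and 0.595), and Ccl7 (0.593 and 0.51). Of 5 Notch pathway genes, Jag1 and Hes1 were lower, with ratios of 0.519 and 0.372, and 0.588 and 0.648.

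Transcripts of other cell types lay among the lowest genes. Emcn, a gene of endothelial cells, had 1.39 CPM in Ibsp-expressing cells and 22.2 CPM in other stroma of cKO, and 1.37 CPM against 22.0 CPM in WT. The level filter favoured low ratios for Emcn and any other gene that reached 20 CPM only in other stroma. Ctla2a had ratios of 0.104 and 0.109, Cd93 0.266 and 0.241, Plac8 0.262 and 0.252, and the basophil protease gene Mcpt8 0.147 and 0.188. The 7 endothelial markers summed to 11.7 CPM in cKO and 11.4 CPM in WT Ibsp-expressing cells, against 89.3 CPM and 112 CPM in other stroma. The 9 neutrophil markers summed to 134 CPM and 136 CPM, against 353 CPM and 277 CPM. The part of such cells in the lower genes was not tested. The 11 macrophage markers summed to 286 CPM and 312 CPM against 278 CPM and 450 CPM, and the 8 osteoclast markers to 103 CPM and 88.3 CPM against 88.2 CPM and 71.9 CPM. Of 7 T and NK cell markers 5 were at 0 in Ibsp-expressing cells of both libraries, as were 6 of 7 erythroid markers.

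Levels of several genes differed between cells with little and much Ibsp, which is a description, since Ibsp chose the cells. In 6 bands, from no Ibsp UMI to 10 or more per 10000, Alpl stood at 166, 257, 483, 538, 785 and 606 CPM in cKO and at 207, 324, 490, 640, 957 and 1058 CPM in WT. Pth1r went up in every step in WT, reaching 420 CPM in the highest band, and stood at 381 CPM and 322 CPM in the 2 highest cKO bands. Sp7 stood at 41.1 CPM with no Ibsp UMI and 147 CPM in the highest band in cKO, and at 32.5 CPM and 130 CPM in WT. Mef2c stood at 34.8 CPM and 355 CPM in cKO, and at 46.0 CPM and 198 CPM in WT. Acta2 ran the other way, with 3234, 2642, 1442, 1148, 1177 and 823 CPM in cKO and 3317, 2627, 1874, 1626, 1339 and 854 CPM in WT. Brinp3 showed no such order, with its highest levels in the bands from 1 to 5 in cKO (61.4 CPM in both) and from 1 to 2 in WT (55.8 CPM). Prrx1, a gene of limb mesenchyme, stayed between 372 CPM and 456 CPM in cKO and between 369 CPM and 446 CPM in WT. The highest bands hold few cells, 17 and 18 in cKO and 43 and 39 in WT, and cells of a band share their library.

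**Figure D3:**
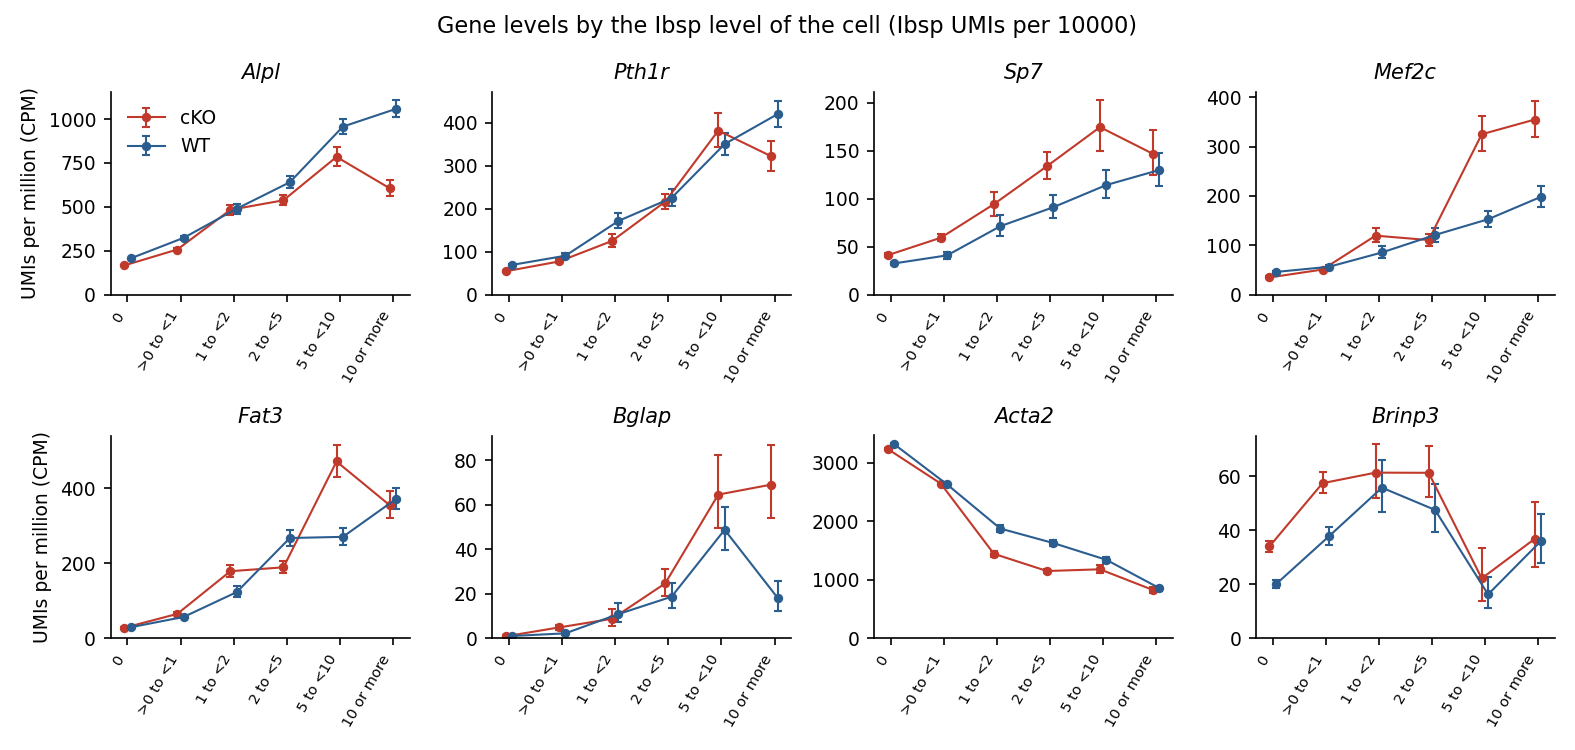
Levels of 8 genes (vertical axes, CPM, with 95% counting intervals) in deep non-cycling stroma grouped by Ibsp UMIs per 10000 (horizontal axes), for cKO (red) and WT (blue). Alpl, Pth1r, Sp7, Mef2c and Fat3 are higher in the bands with more Ibsp, Acta2 is lower, and Brinp3 is highest in the middle bands.

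Bone matrix genes were mixed. Of 13 compared, 4 were higher (Ibsp, Bglap, Bglap2 and Dcn) and 1 lower (Smoc2, 0.612 in cKO and 0.573 in WT), with medians of 1.26 and 1.31. Fmod had ratios of 1.49 and 1.52 and Tnn of 1.26 and 1.63, Omd stayed under 20 CPM, and Ogn had 0.933 and 0.858. Spp1 was not among the higher genes, and the libraries differed. Its per-cell median, on the scale of the Ibsp rule, was 27.85 in Ibsp-expressing cells and 17.57 in other stroma of cKO. In WT these medians were 11.21 and 13.27. Spp1 stood at 2300 CPM with no Ibsp UMI and 3723 CPM in the highest Ibsp band of cKO, and at 2051 CPM and 2002 CPM in WT. Of 10 mineral handling genes, Alpl, Slc13a5 and Smpd3 were higher and Slc20a1 and Anxa6 lower. The list medians were 0.998 in cKO and 0.882 in WT, with 4 genes above 1 and 5 below 1 in both libraries. Alpl and Slc13a5 are leading markers picked earlier from these data. Smpd3, a sphingomyelinase gene needed for mineralization, had 60.2 CPM in Ibsp-expressing cells and 12.5 CPM in other stroma of cKO, and 58.2 CPM against 19.9 CPM in WT. In cKO 1 cell held 31.9% of its UMIs. Slc20a1, a phosphate importer gene, had ratios of 0.622 and 0.568. Enpp1, which makes the mineral inhibitor pyrophosphate, had 0.675 and 0.51, and Mgp, encoding another inhibitor, 1.64 and 1.29.

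Transcripts of several genes of the last stages were scarce. Of 12 osteocyte genes listed, Sost, Mepe, Dkk1, Fgf23 and Kl had 0 UMIs in Ibsp-expressing cells of both libraries. Phospho1 and Ahsg, from the mineral handling list, also had 0. Of the 12 osteocyte genes 2 were compared, with 0 higher and 1 lower (Tnfrsf11b). The 12 summed to 119 CPM in cKO and 112 CPM in WT Ibsp-expressing cells, against 139 CPM and 125 CPM in other stroma. Dmp1 had 15 UMIs in cKO, 14 of them in 1 cell, and 0 in WT. A count of 0 allows a level of up to 0.418 CPM in cKO and 0.343 CPM in WT, which is 3 UMIs of the summed cells and covers counting error only.

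**Figure D4:**
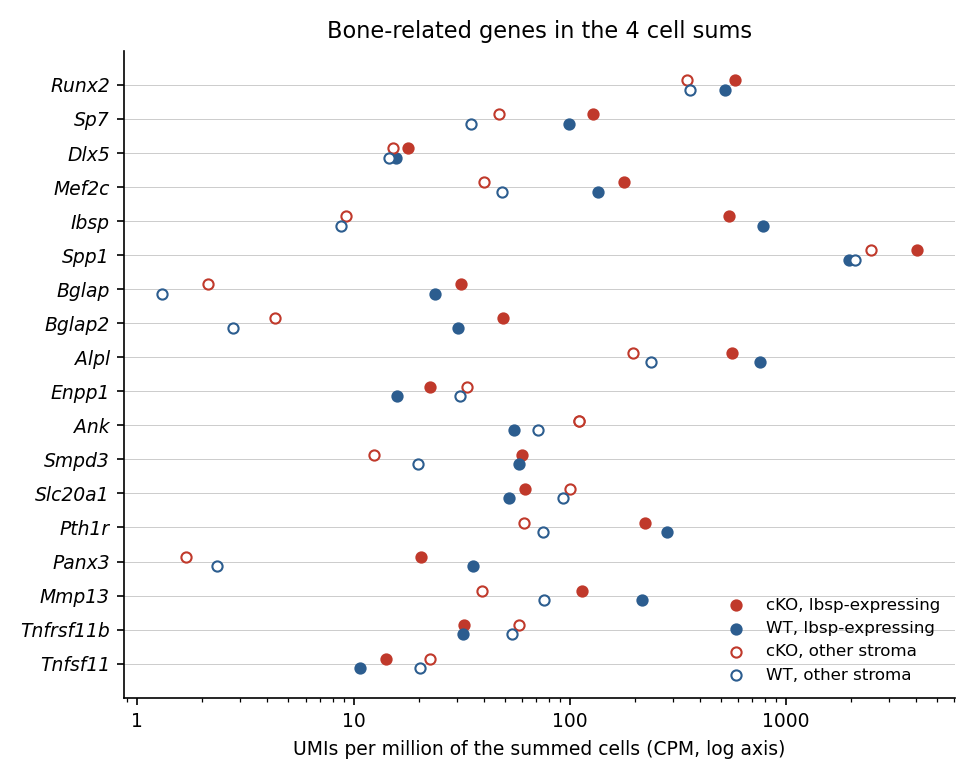
CPM (horizontal log axis) of bone-related genes in the summed Ibsp-expressing cells (filled) and other stroma (open) of cKO (red) and WT (blue). Ibsp, Bglap, Bglap2, Panx3, Pth1r and Sp7 are higher in the filled points of both libraries, whereas Spp1 is at 4037 CPM in cKO and 1959 CPM in WT filled points.

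Slc31a1 (ENSMUSG00000066150, chromosome 4, 62360727 to 62391769 of GRCm38, plus strand) was lower in Ibsp-expressing cells of the cKO library. It had 15.5 CPM in cKO (111 UMIs) and 48.3 CPM in WT (422 UMIs), a ratio of 0.32 (0.257 to 0.396). In other stroma the ratio was 0.358 (0.328 to 0.39). Thinned to 20000 UMIs, 24.8% of cKO and 59.1% of WT Ibsp-expressing cells held a Slc31a1 UMI (56.9% and 86.4% unthinned), and in the macrophage gate 72.1% and 70.2%. Slc31a1 did not follow the Ibsp bands, staying between 11.1 CPM and 16.9 CPM in cKO and between 37.9 CPM and 60.8 CPM in WT. The floxed exons are not named in the labels, and UMIs from a 3' end outside them need not be lost. Prrx1 had 410 CPM in cKO and 400 CPM in WT, a ratio of 1.03 (0.976 to 1.08).

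Between Ibsp-expressing cells of the 2 libraries, 47 of 6691 genes were at least 1.5-fold higher in cKO (0.702%) and 87 lower (1.3%), at 20 CPM or more in either library. The median ratio was 0.977 over all genes. The same comparison in other stroma gave 36 of 6714 genes higher (0.536%) and 40 lower (0.596%). More cells stood behind the counts in other stroma, and both comparisons rest on the same 2 libraries, so their values are given side by side.

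Osteopontin transcripts showed the largest difference in CPM among bone matrix genes. Spp1 had 4037 CPM in cKO and 1959 CPM in WT Ibsp-expressing cells, a ratio of 2.06 (2.02 to 2.1), against 1.19 (1.18 to 1.2) in other stroma. The ratio in Ibsp-expressing cells was 1.74 times that in other stroma (1.7 to 1.77). Per cell, the median was 27.9 UMIs per 10000 in cKO, with 10% of cells above 106, and 11.2 in WT, with 10% above 56.9. In other stroma the medians were 17.6 and 13.3. The ratio stayed between 2.05 and 2.32 in 6 recomputations. By Ibsp band, Spp1 reached 4961, 4281 and 3723 CPM in the 3 highest bands of cKO, whereas those of WT had 2188, 1700 and 2002 CPM. In cKO 10 cells held 34.4% of its UMIs in Ibsp-expressing cells and 1 cell 5.78%.

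Other osteoblast genes differed less, and in both directions. Sp7 had 128 CPM in cKO and 99.2 CPM in WT (1.29, 1.18 to 1.42), and Runx2 had 584 CPM and 523 CPM (1.12, 1.07 to 1.17), with no osteoblast transcription factor past 1.5-fold among 9 and a list median of 1.12. Mef2c had a ratio of 1.33 in Ibsp-expressing cells against 0.819 in other stroma. Alpl had 564 CPM in cKO and 762 CPM in WT (0.74, 0.711 to 0.77), Pth1r 224 CPM and 280 CPM (0.798) and Tenm4 0.826. Fat3 was at 249 CPM in both (0.998, 0.937 to 1.06). Ibsp, on which the cells were selected, had 542 CPM in cKO and 780 CPM in WT. Bglap2 was called higher (48.9 CPM in cKO and 30.4 CPM in WT), but 1 cKO cell held 27.9% of its UMIs, and Bglap was not called (1.32). Panx3 was lower, with 20.6 CPM in cKO and 35.7 CPM in WT (0.578, 0.472 to 0.704), as was Mmp13, with 114 CPM and 217 CPM (0.528), whose ratio was 0.715 with each cell weighted equally.

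The genes highest in cKO had several roles, and Plpp3 reached 20 CPM only in cKO. Plpp3, a lipid phosphatase gene, had 20.8 CPM in cKO and 8.35 CPM in WT Ibsp-expressing cells, a ratio of 2.48 (1.87 to 3.33), against 1.39 in other stroma. Ank, encoding a transporter that carries pyrophosphate and citrate out of cells, had 111 CPM and 55.0 CPM (2.01, against 1.54 in other stroma). Haem oxygenase, an enzyme of the oxidative stress response encoded by Hmox1, had 204 CPM and 102 CPM (2.00, against 1.57). Ptgs2, which starts prostaglandin synthesis, had 72.4 CPM and 35.5 CPM (2.04, against 1.95), and the early response gene Egr1 had 63.0 CPM and 28.7 CPM (2.19, against 1.56). S100a4 had 219 CPM and 123 CPM (1.78, against 2.34), Nav2 1.93 against 1.85, and the adhesion gene Pcdh7 1.83 against 1.65. Prkg2, a cyclic GMP-dependent kinase gene, had 1.83, the sulphotransferase gene Chst2 1.81, Glis1 1.81, Nmnat2 1.78 and Pdzrn4 2.04. Pde3a, a cyclic nucleotide phosphodiesterase gene, had 1.82, but 1.18 among cells with 40000 to 80000 UMIs.

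The lowest ratios included secreted regulators of the Wnt and BMP pathways and matrix genes. Bmp4, Lgr5, Abi3bp and Hp, like Slc31a1 above, reached 20 CPM only in WT, so the level filter favoured low ratios for them. The same holds for any other gene that reached 20 CPM in WT alone. Bmp4 had 9.19 CPM in cKO and 28.9 CPM in WT Ibsp-expressing cells, a ratio of 0.318 (0.238 to 0.418), against 0.498 in other stroma. Rspo2, an R-spondin that amplifies Wnt signals, had 174 CPM and 378 CPM (0.46, against 0.595), its receptor gene Lgr5 11.3 CPM and 24.1 CPM (0.467, against 0.605), and the Wnt antagonist gene Sfrp1 27.2 CPM and 60.2 CPM (0.451, against 0.757). Abi3bp, a matrix protein gene, had 8.36 CPM and 27.6 CPM (0.303), although 1 cell held 30% of its cKO UMIs. Fndc1 had 0.351, the fibrillin gene Fbn2 0.428, Serping1, encoding the C1 inhibitor, 0.366, Hp, encoding haptoglobin, 0.414, and H2-Q7 0.393. Aldh1a2, which makes retinoic acid, had 34.0 CPM and 90.6 CPM (0.375, against 0.562). Pi15, a secreted protein gene that was itself higher in Ibsp-expressing cells, had 24.8 CPM and 56.0 CPM (0.443, 0.371 to 0.527), against 0.993 in other stroma. Ndufa4l2 had 0.477, but 0.726 among cells with 40000 to 80000 UMIs.

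**Figure D5:**
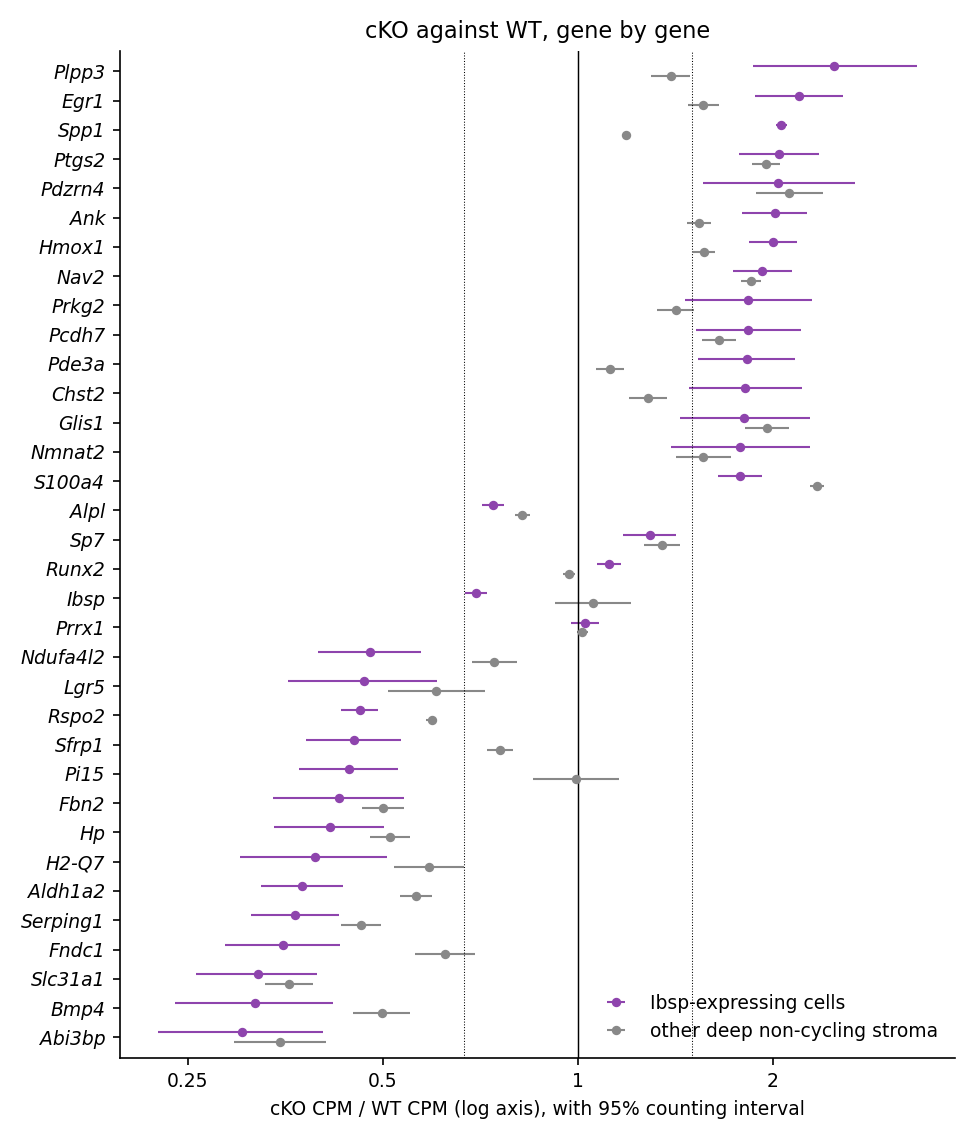
cKO CPM over WT CPM (horizontal log axis, with 95% counting intervals) in Ibsp-expressing cells (purple) and other deep non-cycling stroma (grey), for the 15 genes with the highest and 14 of those with the lowest ratio in Ibsp-expressing cells and 5 further genes between them. Dotted lines mark 1.5-fold either way. Spp1, Plpp3 and Pde3a lie further right in Ibsp-expressing cells than in other stroma, and Pi15 lies at 0.443 in the first and 0.993 in the second.

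At the level of lists, bone matrix had 3 genes higher (Spp1, Bglap2 and Ecm1) and 1 lower (Ogn) of 13 compared, with a median of 1.05. Mineral handling had Ank alone among 10, with a median of 1.06. Of 13 BMP pathway genes, Id2 (50.01 CPM in cKO and 29.98 CPM in WT) and Id3 (343 CPM and 220 CPM) were higher and Bmp4 was lower. Other stroma had 3 of 15 BMP pathway genes higher in cKO and 1 lower. Of 16 Wnt pathway genes, Sfrp1 and Lgr5 were lower, with a median of 0.87. Of 18 marrow reticular and adipogenic genes 5 were lower and 0 higher, with a median of 0.789, the lowest among lists of at least 10 compared genes. In other stroma 6 of 19 of these were lower, with a median of 0.848. Lifr had 207 CPM in cKO and 388 CPM in WT (0.534, against 0.631 in other stroma), and Ebf3 34.4 CPM and 55.4 CPM (0.621, against 0.686). The 9 contractile genes had a median of 0.798 with none past 1.5-fold.

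Of the 12 matrix protease genes, Mmp13, Adamts1 (0.64) and Adamts5 (0.592) were lower. Of 18 collagens, Col3a1 (925 CPM in cKO and 1435 CPM in WT) and Col27a1 were lower, and none of 19 collagen processing genes passed 1.5-fold. Csf1, encoding the growth factor of macrophages and osteoclast precursors, had 358 CPM and 226 CPM (1.59, against 1.36 in other stroma). Of 3 osteoclast support genes compared, Csf1 and Ptgs2 were higher and Tnfrsf11b had 1.02.

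Copper handling and metabolism differed in few genes. Of 19 copper genes compared, the metallothionein gene Mt2 (118 CPM in cKO and 69.9 CPM in WT) and the metalloreductase gene Steap2 (30.6 CPM and 20.02 CPM) were higher, and Slc31a1 and Cp (38.4 CPM and 65.3 CPM) were lower. The list median was 1.01. Steap2 had 1.38 among cells with 40000 to 80000 UMIs. None of 28 nuclear genes of oxidative phosphorylation passed 1.5-fold (median 1.00), nor did any of 13 mitochondrially encoded genes (median 1.06). Of 19 genes of glycolysis and hypoxia, Hk1 (0.651), Slc2a1 (0.607) and Bnip3 (0.644) were lower, with a median of 0.904. Of 14 antioxidant genes, Hmox1 and Gclc (47.6 CPM and 29.9 CPM) were higher, with a median of 1.13 against 1.15 in other stroma. Of 13 immediate early genes, Egr1, Ier2 and Zfp36 were higher and Jun lower, with a median of 1.12. Ndnf (57.1 CPM in cKO and 109 CPM in WT, a ratio of 0.522) and Fhod3 (27.9 CPM and 47.8 CPM, 0.583) were lower in cKO, but stood at 0.688 and 0.716 among cells with 40000 to 80000 UMIs. The calls of Bglap2, Csf1, Gclc, Notch3, Steap2, Adamts1, Bnip3, Col3a1, Col27a1, Ebf3, Hk1, Jun, Ogn and Slc2a1 were also lost under at least 1 of the 6 ways in which ratios were recomputed.

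The 11 macrophage markers summed to 286 CPM in cKO and 312 CPM in WT Ibsp-expressing cells. Of 5 compared, 0 passed 1.5-fold and 4 had a ratio below 1. In other stroma they summed to 278 CPM and 450 CPM, and 7 of 8 compared were lower in cKO. The rule capped 8 of these markers. Per cell, those 8 had medians of 0.659 UMIs per 10000 in cKO and 1.09 in WT Ibsp-expressing cells. Other stroma had 0.735 and 1.18, so the per-cell medians were lower in cKO in both kinds of cell. Neutrophil markers in Ibsp-expressing cells summed to 134 CPM and 136 CPM. Pericyte and smooth muscle markers summed to 52.2 CPM and 28.2 CPM, with Notch3 at 1.61, against 64.2 CPM and 74.7 CPM in other stroma. The part of such cells in the differences was not tested.

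The comparison of ratios was made directly for 6443 genes that reached 20 CPM in both kinds of cell. For 41 of these the cKO over WT ratio in Ibsp-expressing cells was at least 1.5 times, or at most 1 in 1.5 of, that in other stroma. Spp1 (1.74), Plpp3 (1.79), Pde3a (1.62), the guidance receptor gene Epha3 (1.85, 1.51 to 2.28) and Notch3 (1.84, 1.44 to 2.36) were relatively higher. Mef2c (1.62, 1.47 to 1.79) was also among them. Sfrp1 (0.596), Slc13a5 (0.6), Bmp4 (0.638) and Cxcl14 (0.645) were relatively lower. Slc13a5 had 57.1 CPM in cKO and 71.5 CPM in WT Ibsp-expressing cells, and 22.9 CPM and 17.2 CPM in other stroma.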

How the data were processed

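The deposited values were unnormalized UMI counts of each gene in each barcode, from 1 cKO and 1 WT library. Per the file headers, Cell Ranger 7.1.0 made them. The submitters' processing notes give mm10 (GRCm38) as the build and list Seurat as a tool. Whether intronic reads were counted is not stated. No cell annotation was used. The cells and the 37 gene lists were chosen with earlier results of these data known. Counts were summed per library and kind of cell and divided by that sum's total to give counts per 1000000 UMIs (CPM). Ratios carry exact conditional binomial intervals, shares exact Clopper-Pearson intervals, differences of shares Newcombe intervals and quotients of ratios log-normal intervals, all at 95% and for counting error only. Doublets were not removed in the main values. Shares of cells with a UMI were taken after thinning each cell to 20000 UMIs without replacement; no cell was shallower.

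Genes named, at 20 CPM or more and without mitochondrial, ribosomal protein, haemoglobin and predicted genes, were the 15 highest and 10 lowest ratios over other stroma (by the library nearer 1), the 15 highest and lowest cKO over WT ratios, Slc31a1, Prrx1, the leading markers and, from each list, up to 4 genes that differed most. Genes of the osteoblast transcription factor, bone matrix, mineral handling and osteocyte lists could all be named. A few genes that met the rule are not reported here. Gene coordinates are 1-based. The ratio step was tested on simulated Poisson counts of the summed cells. These hold counting error only, so the test does not cover UMIs spread unevenly over cells. Python 3.11.15, numpy 2.4.6, scipy 1.17.1, pandas 2.3.3 and scanpy 1.11.5 (Scrublet scores) were used.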

Additional observations from a re-analysis of the deposited data

How the results depend on the processing

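No paired analysis was possible because each genotype had 1 library. The share of Ibsp-expressing cells was 18.6% in cKO and 20.1% in WT at 0.5 Ibsp UMIs per 10000, 9.37% and 11.6% at 2, and 10.4% and 12.6% with no limit on the cycling score. With each cell thinned to 20000 UMIs it was 15.5% in cKO and 18.1% in WT. The difference between the libraries stayed between -2.56 and -0.505 points, with 0 inside its interval under each alternative.

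With at least 50 CPM, 61 genes were higher and 120 lower than in other stroma, 15 higher and 43 lower in cKO than in WT, and 12 had differing ratios. With at least 5 CPM these numbers were 202, 432, 252, 308 and 332. Fewer genes were compared at 50 CPM and more at 5 CPM than at 20 CPM, and shares were not computed. Nothing is therefore read from these counts. At 2 Ibsp UMIs per 10000, 90 genes had differing ratios. Among cells with 40000 to 80000 UMIs, a window chosen after seeing the data, 85 genes were higher in cKO, 37 of them among the 47 of all cells, and 78 had differing ratios. The cause was not tested. The other counts stayed within 1.5 times. Among 1494 recomputed ratios of named genes, 0 of those belonging to called genes turned round. Ratios of genes that were not called were not checked for this. Of 249 ratios, 89 moved beyond their counting interval in the 40000 to 80000 UMI window, 62 at 2 Ibsp UMIs per 10000, 40 with equal cell weights, 27 at a minimum of 40000 UMIs, 3 with the median ratio set to 1 and 2 without the highest 5% of Scrublet scores.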

Other observations

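Cycling stroma, left out by the rule, also held Ibsp. Of deep cycling stromal cells, 18 of 438 in cKO (4.11%, exact interval 2.45 to 6.42) and 46 of 629 in WT (7.31%, 5.40 to 9.63) had at least 1 Ibsp UMI per 10000, with medians of 5.599 and 2.39 UMIs per 10000. These shares were below the 13.99% and 15.5% of non-cycling stroma in both libraries. Their median depths were 68946 UMIs in cKO and 53022 UMIs in WT.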
